A study of Mus musculus with 6 samples.

Results

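Transcripts of 57 genes that build, cap, cut, recycle and bundle actin filaments were followed in Acta2 knockout and wild-type mouse cardiac fibroblasts. Acta2 encodes α-smooth muscle actin. The 57 were listed by symbol from what their proteins are known to do, with earlier results of these data known, and all 57 were among the 25746 genes of the deposited table. A filter on low counts left 12192 genes for testing, 56 of the 57 among them. RNA-seq covered 2 Acta2 knockout (KO) and 2 wild-type (WT) libraries, and ATAC-seq, a transposase-based map of open chromatin, covered 1 KO and 1 WT library. Per the labels, the KO cells came from Acta2 fl/fl mice and the WT cells from WT mice. Both received Adeno-Cre, an adenovirus that delivers the recombinase, and then TGFβ, the cytokine that turns fibroblasts into myofibroblasts, for 2 days. The same labels name a MerCreMer line given tamoxifen (75 mg/kg daily, 5 days) when 6 weeks old, infarction at 9 weeks and a sort of Tcf21 lineage eGFP+ fibroblasts. Which of these preparations each library came from is not given in the sources used here. The study asked what the loss of Acta2 does to gene expression and open chromatin in these cells. The labels do not say whether replicates were separate animals or separately grown cells, and every p-value given here reflects only how far these libraries differ, which may be technical.

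Actin filaments grow mainly at the barbed end. Profilins, thymosins, twinfilins and cyclase-associated proteins hold or hand on the monomers, formins and the Arp2/3 complex start new straight and branched filaments, and Ena/VASP proteins speed their elongation. Capping protein closes barbed ends, cofilins and gelsolin sever filaments, and fascin and plastins bundle them. In fibroblasts this turnover supplies the filaments of the leading edge and of the stress fibres into which α-smooth muscle actin is built.

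The libraries held 10864365 to 11370115 estimated counts in KO and 8429166 to 9096811 in WT. Acta2 itself had 256 and 266 CPM (estimated counts scaled to library size) in KO libraries, against 2186 and 2199.9 CPM in WT libraries (log2 fold change -3.07, SE 0.030, adjusted p = 1.59e-32 by the quasi-likelihood test of edgeR). The KO mean was 11.9% of the WT mean, so some Acta2 transcript remained. All 10 listed fibroblast markers were detected in every library. Of these, 8 were lower in KO, 1 (Thy1) was higher and 1 (Ddr2) did not pass. Thy1 had 53.7 and 54.7 CPM in KO libraries, against 43.8 and 44.2 CPM in WT libraries (log2 fold change 0.30). The 10 markers summed to 3523 and 3528 CPM in KO libraries, against 4913 and 4828 CPM in WT libraries. For comparison with each marker list, 18.3% of all tested genes were higher and 17.4% lower in KO at an adjusted p under 0.05. Of 15 macrophage and leukocyte markers 11 were tested, 7 rose and none fell. Among those 7, C1qa, C1qb and C1qc lie together on chromosome 4, at 136880129 to 136898803. The list summed to 190.1 and 190.3 CPM in KO, against 111 and 106 CPM in WT. Within that list Fcgr1 was at 0 in each library, and Ptprc had estimated counts of 11 and 9 in KO libraries, against 5 and 1 in WT libraries. Of 12 endothelial markers 9 rose and 1 fell, with sums of 508 and 519 CPM in KO, against 405 and 379.6 CPM in WT. Of 9 pericyte and smooth muscle markers 3 rose (Mcam, Myh11 and Lmod1) and 3 fell (Rgs5, Cspg4 and Steap4). They summed to 88.8 and 95.7 CPM in KO, against 60.6 and 62.3 CPM in WT, and 2 of them, Kcnj8 and Abcc9, had at most 4 estimated counts in a library. Of 8 mesothelial markers 1 rose and 4 fell, and of 10 cardiomyocyte markers 8 were too low to test. These sums differed between the same libraries as the genes below, and their part in those values was not tested. In bulk RNA, fewer cells of a type and less RNA per cell cannot be told apart.

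Among the actin regulators, 20 transcripts were higher and 7 were lower in KO, and 29 of the 56 tested did not pass an adjusted p of 0.05. The called share was 48.2%, against 35.7% of all genes tested. Upward calls made up 35.7% of the tested members and 18.3% of all genes, and downward calls 12.5% and 17.4%. Well-expressed genes were called more often throughout the table. Above a mean log2 CPM of 7, where 24 members lay, 62.5% of members and 58.5% of all genes were called. Between 4 and 7 the shares were 53.3% of 15 members and 39.9% of all genes, and below 4 they were 23.5% of 17 members and 24.3% of all genes. By direction, 10 members above 7 were higher and 5 lower, against 394 and 607 of all 1710 genes there. Between 4 and 7 the counts were 7 and 1, against 1069 and 987 of 5159. Below 4 they were 3 and 1, against 768 and 527 of 5323. Most of the differences were small. The median absolute log2 fold change of the called members was 0.27, against 0.40 over all called genes, and 16 of the 27 called members differed by less than 0.3.

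Of the 56 tested members 7 were called with a log2 fold change of at least 0.5 in size, a share close to the 13.8% of all genes tested. The 6 that rose were Daam2, Cap2, Capzb, Cotl1, Actr2 and Diaph1, and the 1 that fell was Wasf1. For 4 of the 56, Daam2, Cap2, Capzb and Wasf1, the size was at least 1, against 5.0% of all genes. KO and WT libraries did not overlap in CPM for any of these 7, nor did they for 43 of the 56 tested members in all, against 67.1% of all genes. The fitted spread between replicates was narrow, with a biological coefficient of variation (BCV) of 0.0311, and many calls rest on it. With a BCV of 0.1 assumed in its place, which called 14.6% of all genes (8.42% higher and 6.18% lower), 9 members kept their calls, namely Capzb, Cap2, Actr2, Wasf1, Cotl1, Daam2, Diaph1, Cap1 and Capg. With 0.2 assumed, which called 3.26% of all genes (1.83% higher and 1.44% lower), Capzb and Cap2 kept theirs. DESeq2, which called 16.9% of all genes (7.89% higher and 8.99% lower), kept 16 of the 27 calls and lost those of Capza2, Cfl1, Cfl2, Gsn, Flii, Limk2, Twf2, Diaph1, Daam2, Vasp and Fscn1.

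**Figure D1:**
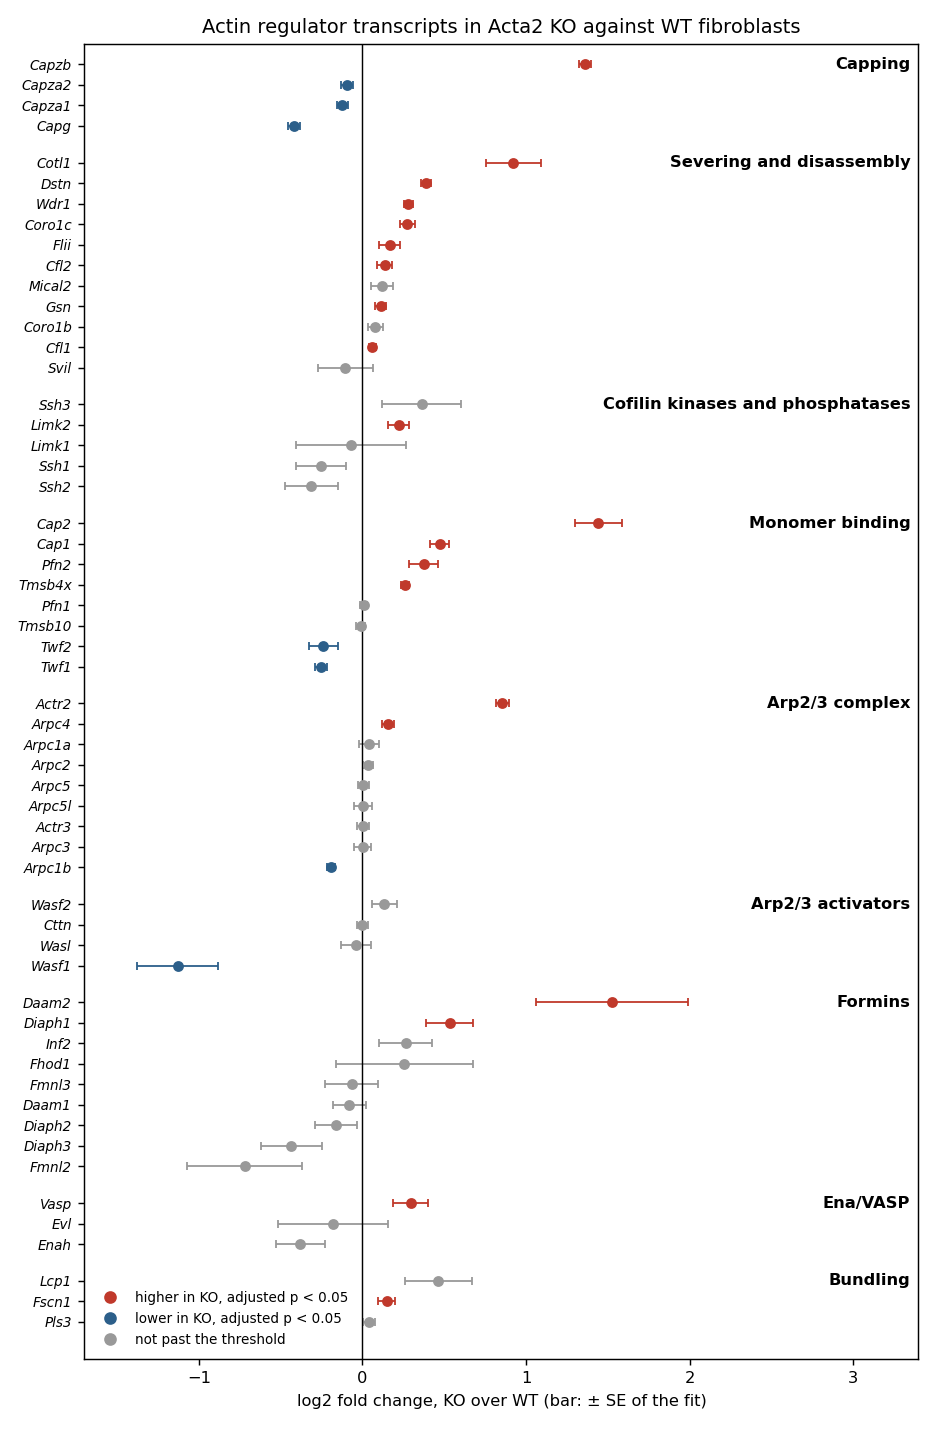
Log2 fold change, KO over WT, of the 56 tested members by role, with bars of ± SE of the edgeR fit. Each role group is sorted from high to low, and red, blue and grey mark members higher in KO, lower in KO and past no threshold. Capzb at 1.36 and Actr2 at 0.86 stand away from the other members of their groups.

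Capping protein is a heterodimer of an α subunit, encoded by Capza1 or Capza2, and a β subunit, encoded by Capzb. Its subunit transcripts moved in opposite directions. Capzb had 1007 and 973 CPM in KO libraries, against 402 and 368 CPM in WT libraries. Both KO libraries lay far above both WT libraries, 2.57-fold higher (log2 fold change 1.36, SE 0.037, adjusted p = 1.15e-21, edgeR). This was the smallest adjusted p of all members. Capza1 had 549 and 571 CPM in KO, against 594 and 626 CPM in WT, and Capza2 had 373 and 381 CPM in KO, against 404 and 403 CPM in WT. Both α subunits were thus slightly lower in KO without overlap between genotypes, with log2 fold changes of -0.12 (adjusted p = 0.00671) and -0.097 (adjusted p = 0.0405, edgeR). The Capza1 value is uncertain because 51.7% of the 100-base windows of its exons also occur in other genes. Its call was lost without KO replicate 1 (adjusted p = 0.0726) and without WT replicate 2 (adjusted p = 0.12), and that of Capza2 without any 1 of the 4 libraries (edgeR adjusted p of 0.0728 to 0.184).

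Per exon length, Capzb reached 847 and 828 TPM (counts scaled to exon length and library total) in KO, against 330.3 and 307 TPM in WT, and its rank among the 57 members was 7 in KO and 16 in WT. The per-length ratio of Capzb to Capza1 was 2.10 and 1.95 in KO libraries, against 0.777 and 0.673 in WT libraries, and its ratio to Capza2 was 4.82 and 4.56 in KO, against 1.78 and 1.63 in WT. In WT the β transcript was thus below the Capza1 transcript in both libraries, and in KO it was above it in both. Because 51.7% of the Capza1 windows also occur in other genes, the Capza1 level and this ordering are uncertain. Capg, a gelsolin relative that caps barbed ends without severing, had 408 and 379 CPM in KO, against 535 and 518 CPM in WT. Both KO libraries were lower (log2 fold change -0.42, SE 0.038, adjusted p = 1.11e-09, edgeR). Because of Capzb, the 4 capping transcripts together summed to 2338 and 2305 CPM in KO, against 1936 and 1914 CPM in WT.

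Capzb lies on the plus strand of chromosome 4 at 139192899 to 139291818 (mm10). Within 1 Mb of it 22 other genes were tested, of which 12 rose and 3 fell, against 18.3% and 17.4% of all tested genes. The median log2 fold change of the 22 was 0.32, against 0.0014 over all tested genes. Next to Capzb, Pqlc2 rose by 0.79 and Micos10 fell by 0.13 on the log2 scale. Whether its position bears on the Capzb value was not tested. Around Actr2 5 of 8 neighbours were called (1 higher, 4 lower), around Cap2 3 of 9 and around Wasf1 4 of 15. Of all tested genes 35.7% were called. The promoter that RefSeq lists for Capzb, from 250 bases before to 50 after its start in RefSeq, is shown because the transcript had the smallest adjusted p among members. That start differs from the 5′ end of the gene given above, and the stretch lies inside the gene. It spans chr4:139193861-139194160 on the plus strand of GRCm38.p6, and capitals mark a GC box, GGGCGG, the letters bound by Sp1-type factors, read on either strand.
Capzb: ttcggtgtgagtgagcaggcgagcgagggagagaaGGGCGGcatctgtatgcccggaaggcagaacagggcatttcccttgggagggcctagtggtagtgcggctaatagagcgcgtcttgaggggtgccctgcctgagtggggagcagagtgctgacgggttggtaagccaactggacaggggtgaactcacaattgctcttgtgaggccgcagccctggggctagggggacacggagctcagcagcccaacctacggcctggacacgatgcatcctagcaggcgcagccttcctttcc
The KO list had 2 peaks near the 5′ end of the gene, with folds over background of 19.1 for the one from 139191021 to 139192802 and 14.0 for the one over the printed stretch. The WT list had 1 peak, from 139191636 to 139195351, that reached over both, with a fold of 16.8.

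**Figure D2:**
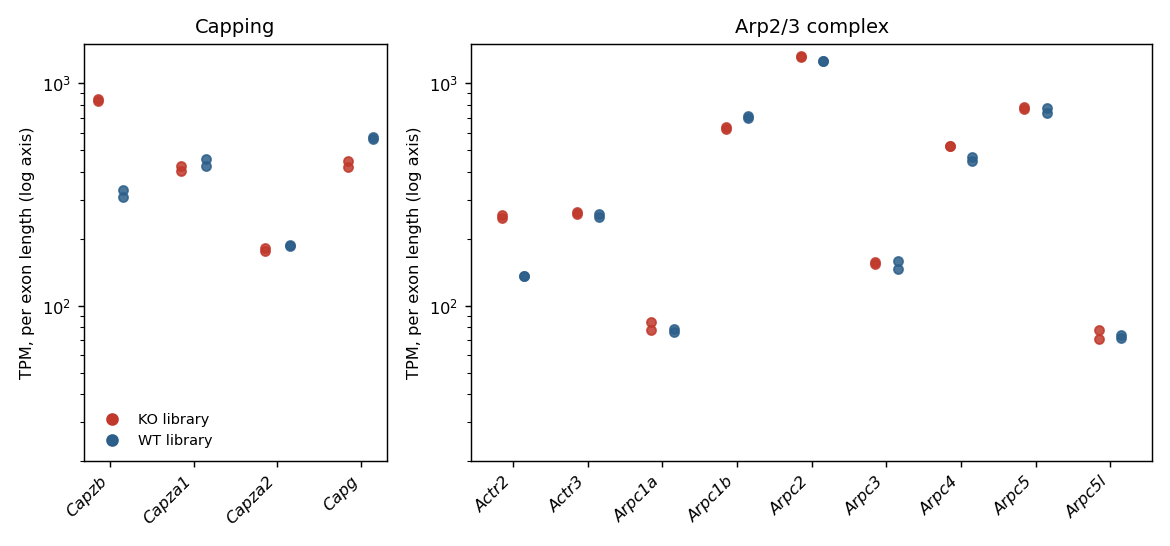
TPM of the 4 capping genes and the 9 Arp2/3 complex genes in each of the 2 KO (red) and 2 WT (blue) libraries, on a log axis. Capzb and Actr2 are higher in both KO libraries, and each other Arp2/3 gene lies close to its own WT level.

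Genes of severing and disassembly moved one way where they passed the test. Of 11 tested, 8 rose, none fell and 3 did not pass, with a median log2 fold change of 0.14, against 0.0014 over all genes. Over all tested genes 18.3% were called higher and 17.4% lower. Of the 8 called here, only Cotl1 kept its call with a BCV of 0.1 assumed. Cotl1, coactosin-like protein, which binds filaments and is related to cofilin, had 17.3 and 17.7 CPM in KO, against 11.5 and 7.08 CPM in WT. The WT libraries differed from each other more than the KO libraries did, and both lay below them (log2 fold change 0.92, SE 0.17, adjusted p = 8.95e-05, edgeR). Cotl1 is also abundant in leukocytes. Of the 11 macrophage and leukocyte markers tested 7 were higher in KO and 4 did not pass, and the part of such cells in the Cotl1 value was not tested. Dstn, destrin, a cofilin relative that depolymerises filaments, had 938 and 957 CPM in KO, against 723 and 726 CPM in WT. Wdr1, Aip1, which helps cofilin to take filaments apart, had 1056 and 1061 CPM in KO, against 876 and 868 CPM in WT. Coro1c, a coronin of filament turnover, had 213 and 212 CPM in KO, against 173 and 178 CPM in WT. In these 3 the replicates lay close together and the genotypes apart, with log2 fold changes of 0.39 (SE 0.029), 0.28 (SE 0.028) and 0.27 (SE 0.045) in the order given.

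The cofilins themselves hardly differed. Cfl1, non-muscle cofilin and the second most abundant member per length, had 4173 and 4039 TPM in KO, against 3859 and 3859 TPM in WT, a log2 fold change of 0.059 in CPM. Of the Cfl1 windows 9.47% also occur in other genes, and 16.5% of its exon length overlaps other genes. Cfl2, the muscle form, rose by 0.14, Flii, flightless of the gelsolin family, by 0.17 and Gsn, gelsolin, which severs and caps, by 0.11. Each of these 4 kept its sign but lost its call with 1 library left out. Without KO replicate 1 the log2 fold change was 0.022 for Cfl1 (edgeR adjusted p = 0.595), 0.12 for Flii (0.33) and 0.081 for Gsn (0.147). Without WT replicate 2 it was 0.044 for Cfl1 (0.116), 0.098 for Flii (0.373) and 0.076 for Gsn (0.161). For Cfl2 it was 0.11 without KO replicate 2 (edgeR adjusted p = 0.131) and 0.090 without WT replicate 1 (0.267). Coro1b (0.08), Mical2, which oxidises actin (0.12), and Svil, supervillin (-0.10), did not pass. The ratio of Cfl1 to Dstn was 3.07 and 2.88 per length in KO, against 3.77 and 3.69 in WT, and lower in both KO libraries.

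Cofilin is switched off by LIM kinases and switched on by slingshot phosphatases. Of these 5 genes 1 was called, against 35.7% of all tested genes. Limk2 had 78.5 and 86.8 CPM in KO, against 72.0 and 69.9 CPM in WT (log2 fold change 0.22, SE 0.064, adjusted p = 0.00865, edgeR). KO replicate 1 lay about as far from KO replicate 2 as from the WT libraries, and without KO replicate 2 the adjusted p was 0.192. Ssh2 had 9.11 and 10.0 CPM in KO, against 10.6 and 13.2 CPM in WT, and Ssh1 had 11.3 and 10.5 CPM in KO, against 13.4 and 12.6 CPM in WT. Neither passed, nor did Ssh3 (log2 fold change 0.36) or Limk1 (-0.070), at low levels.

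Among the 8 monomer-binding proteins 4 rose and 2 fell, against 18.3% and 17.4% of all tested genes, and 2 did not pass. Cap2, the cyclase-associated protein of striated muscle, had 22.5 and 26.4 CPM in KO, against 8.87 and 9.07 CPM in WT. The genotypes were far apart and the WT libraries nearly equal (2.73-fold, log2 fold change 1.44, SE 0.14, adjusted p = 5.21e-09, edgeR). Its widely expressed relative Cap1 had 105 and 105 CPM in KO, against 74.8 and 76.5 CPM in WT (log2 fold change 0.47, SE 0.057, adjusted p = 1.8e-07, edgeR). Both forms, which recharge and recycle monomers after cofilin, were thus higher. Per length Cap1 exceeded Cap2 by 5.55 and 4.74 times in KO, against 10.0 and 10.0 times in WT. The promoter of Cap2 (chr13:46501653-46501952, plus strand, GRCm38.p6) is shown in lower case throughout because none of the 5 motifs searched in these promoters was found in it.
Cap2: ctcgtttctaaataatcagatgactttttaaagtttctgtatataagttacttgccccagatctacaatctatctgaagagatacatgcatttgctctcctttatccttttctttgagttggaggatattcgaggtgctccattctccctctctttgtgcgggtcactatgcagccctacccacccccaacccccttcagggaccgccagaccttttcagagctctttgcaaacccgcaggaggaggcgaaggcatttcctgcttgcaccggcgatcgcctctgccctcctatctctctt
The KO list had 1 peak here, from 46501622 to 46503052, with a fold of 23.8. The WT list had 2 peaks within that span, from 46501760 to 46502115 with a fold of 4.93 and from 46502422 to 46503040 with a fold of 16.0.

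Tmsb4x, thymosin β4, which sequesters monomers, had 1932 and 1919 CPM in KO, against 1645 and 1572 CPM in WT. The KO libraries were higher and close to each other (log2 fold change 0.26, SE 0.025, adjusted p = 3.9e-09, edgeR). Tmsb10, thymosin β10, the most abundant of all members, had 4487 and 4497 TPM in KO, against 4597 and 4261 TPM in WT, and overlapped. Without WT replicate 2 it passed as lower in KO (log2 fold change -0.079, adjusted p = 0.0201, edgeR). Likewise Pfn1, profilin 1, had 3584 and 3576 TPM in KO, against 3480 and 3489 TPM in WT, and its CPM overlapped (log2 fold change 0.0083). Pfn2, the scarcer profilin, rose by 0.37 (SE 0.087). The twinfilins, which bind monomers and capping protein, were both lower, with log2 fold changes of -0.25 for Twf1 (SE 0.039) and -0.24 for Twf2 (SE 0.089). Of the Twf1 windows 5.56% also occur in other genes, and 12.9% of its exon length overlaps other genes. The Twf2 call was lost without any 1 of the 4 libraries (edgeR adjusted p of 0.0902 to 0.125).

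**Figure D3:**
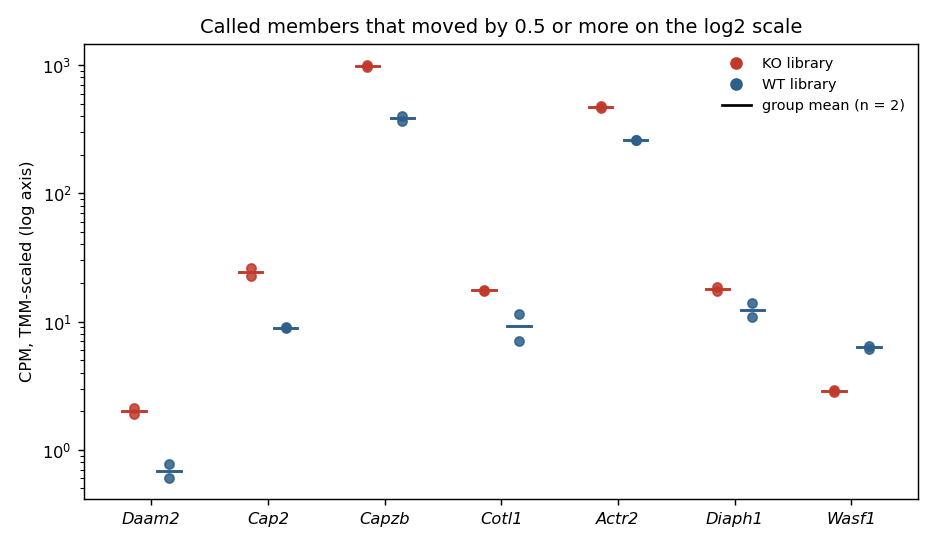
CPM on a log axis of the 7 members called with a log2 fold change of at least 0.5 in size, in each KO (red) and WT (blue) library, with lines at the group means (n = 2). Daam2, Cap2, Capzb, Cotl1, Actr2 and Diaph1 are higher in both KO libraries and Wasf1 is lower in both.

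The Arp2/3 complex holds 7 subunits, made from 9 genes here because 2 subunits have paired forms. Of these 9 transcripts, 2 rose and 1 fell, against 18.3% and 17.4% of all tested genes, and 6 did not pass. Their median log2 fold change was 0.0052. Actr2, which encodes Arp2, had 463 and 476 CPM in KO, against 260.5 and 258 CPM in WT. Both KO libraries were far above the WT libraries (1.81-fold, log2 fold change 0.86, SE 0.038, adjusted p = 1.92e-16, edgeR). Its partner Actr3, which encodes Arp3, had 429 and 437 CPM in KO, against 429 and 434 CPM in WT, and overlapped. Arp2 and Arp3 together form the seed of the new filament. Of the Actr3 windows 11.3% also occur in other genes, so its level and its ratio to Actr2 are less certain. Per length, the ratio of Actr2 to Actr3 was 0.959 and 0.970 in KO, against 0.540 and 0.529 in WT, so that the 2 transcripts were nearly equal per length in both KO libraries and Actr2 was well below Actr3 in both WT libraries.

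Arpc4, which holds the complex together, had 435 and 431 CPM in KO, against 399.7 and 377 CPM in WT, higher in KO (log2 fold change 0.16, SE 0.038, adjusted p = 0.0017, edgeR). Of its windows 8.01% also occur in other genes, and 12.2% of its exon length overlaps other genes. Its libraries did not overlap, but without WT replicate 2 the adjusted p was 0.0587. Arpc1b had 1171 and 1133 CPM in KO, against 1317 and 1316 CPM in WT, lower in KO (log2 fold change -0.19, SE 0.027, adjusted p = 1.96e-06, edgeR). Both KO libraries were lower, but 17.0% of its windows also occur in other genes and 18.2% of its exons overlap Pdap1 on the opposite strand, so the value is uncertain. Arpc1a, the other form of that subunit, had a log2 fold change of 0.040 and did not pass. Arpc2, Arpc3, Arpc5 and Arpc5l had log2 fold changes of 0.034, 0.0014, 0.0052 and 0.0041 and did not pass either. Per length these subunits ran from Arpc5l at 71.0 and 78.2 TPM in KO, against 73.9 and 71.6 TPM in WT, to Arpc2 at 1312 and 1319 TPM in KO, against 1258 and 1258 TPM in WT.

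The Actr2 promoter (chr11:20112902-20113201, minus strand, GRCm38.p6) is shown as that of the 1 subunit that stood apart. Capitals mark 5 GC boxes, on either strand.
Actr2: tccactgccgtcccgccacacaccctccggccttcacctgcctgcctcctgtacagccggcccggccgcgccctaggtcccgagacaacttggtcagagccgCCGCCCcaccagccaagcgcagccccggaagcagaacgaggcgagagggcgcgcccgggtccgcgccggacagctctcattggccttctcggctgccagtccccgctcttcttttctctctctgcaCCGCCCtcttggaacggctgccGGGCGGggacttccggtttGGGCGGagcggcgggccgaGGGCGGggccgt
For Arpc4, a 60-base stretch (chr6:113377863-113377922, plus strand) is shown because it holds a CArG box, the site of serum response factor, in capitals. This was the only CArG box among 65 member promoters.
Arpc4: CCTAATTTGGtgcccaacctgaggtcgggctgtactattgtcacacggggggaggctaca

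The complex is switched on by WASP and WAVE proteins and steadied by cortactin. Of 4 such genes 1 fell, against 17.4% of all tested genes, and 3 did not pass. Wasf1, which encodes WAVE1, had 2.80 and 2.92 CPM in KO, against 6.48 and 6.08 CPM in WT, from estimated counts of 32 and 32 in KO, against 54 and 55 in WT. Its level was low but the genotypes were clearly apart (log2 fold change -1.13, SE 0.25, adjusted p = 0.000755, edgeR). Its relative Wasf2, WAVE2, had 51.1 and 50.7 CPM in KO, against 46.9 and 46.0 CPM in WT, and did not pass (log2 fold change 0.13). Wasl, N-WASP, had 30.3 and 29.7 CPM in KO, against 30.3 and 31.3 CPM in WT, and Cttn, cortactin, had a log2 fold change of -0.00088. Per length Wasf1 stood at 0.120 and 0.126 of Wasf2 in KO, against 0.303 and 0.290 in WT. The Wasf1 promoter (chr10:40883284-40883583, plus strand, GRCm38.p6) is shown because this was the largest fall. Capitals mark a GC box and an MCAT element, CATTCC, the letters bound by TEAD factors.
Wasf1: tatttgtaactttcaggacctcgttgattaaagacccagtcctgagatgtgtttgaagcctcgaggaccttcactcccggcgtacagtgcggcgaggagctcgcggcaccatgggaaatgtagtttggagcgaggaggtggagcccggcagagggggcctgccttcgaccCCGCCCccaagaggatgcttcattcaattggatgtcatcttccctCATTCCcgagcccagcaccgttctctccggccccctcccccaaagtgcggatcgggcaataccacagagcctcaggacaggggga

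Formins were mostly scarce and mostly not called. Of 10, 9 were tested, 2 rose, against 18.3% of all tested genes, and 7 did not pass. The summed level was 93.8 and 97.0 CPM in KO, against 90.4 and 97.4 CPM in WT. Daam2, a formin of Wnt signalling, had 24 and 21 estimated counts in KO, against 5 and 7 in WT. Both KO libraries were higher (log2 fold change 1.53, SE 0.47, adjusted p = 0.0118, edgeR), but the counts are small. Without KO replicate 1 the adjusted p was 0.0978, without KO replicate 2 it was 0.0643 and without WT replicate 1 it was 0.0933. Diaph1, mDia1, which elongates straight filaments, had 17.4 and 18.4 CPM in KO, against 10.8 and 13.8 CPM in WT (log2 fold change 0.53, SE 0.14, adjusted p = 0.00483, edgeR). Its WT libraries differed, and without WT replicate 1 the adjusted p was 0.0843. Diaph3 had 6.13 and 7.76 CPM in KO, against 8.87 and 9.84 CPM in WT, and did not pass (log2 fold change -0.43, adjusted p = 0.0664, edgeR), but without KO replicate 2 it did, at -0.61 (adjusted p = 0.0366). Diaph2, Daam1, Fmnl2, Fmnl3, Fhod1 and Inf2 had log2 fold changes of -0.16, -0.080, -0.72, -0.065, 0.26 and 0.26, none past the threshold. Fhod3, a formin of heart muscle, had too few reads for a test, at 3 and 2 estimated counts in KO, against 1 and 5 in WT.

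Of the Ena/VASP proteins, Vasp had 30.1 and 36.8 CPM in KO, against 24.8 and 29.4 CPM in WT, higher in KO (log2 fold change 0.30, SE 0.11, adjusted p = 0.0335, edgeR). Its lower KO library lay just above its higher WT library, and the adjusted p was 0.425 without KO replicate 2 and 0.257 without WT replicate 1. Enah, Mena, had 10.4 and 11.3 CPM in KO, against 13.1 and 15.2 CPM in WT, and missed the threshold (log2 fold change -0.38, SE 0.15, adjusted p = 0.0509, edgeR). It passed without WT replicate 1, at -0.48 (adjusted p = 0.0328), and with RLE scaling, at -0.39 (adjusted p = 0.0478). Evl, the third relative, had 2.28 and 2.28 CPM in KO, against 2.40 and 2.77 CPM in WT, and did not pass. Enah relative to Vasp was 0.0423 and 0.0375 per length in KO, against 0.0642 and 0.0628 in WT, and lower in both KO libraries.

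Among bundling proteins, Fscn1, fascin of filopodia, had 119.8 and 124 CPM in KO, against 112 and 108 CPM in WT, higher in KO (log2 fold change 0.15, SE 0.052, adjusted p = 0.0262, edgeR). The gap was small, and the call was lost without KO replicate 1 (adjusted p = 0.0592), without KO replicate 2 (0.171) and without WT replicate 2 (0.167). Pls3, T-plastin, the main plastin here, had 515 and 544 CPM in KO, against 501 and 529.6 CPM in WT, and overlapped. Lcp1, L-plastin, had 7.27 and 7.48 CPM in KO, against 4.92 and 5.75 CPM in WT, and did not pass (log2 fold change 0.46, adjusted p = 0.0787, edgeR). L-plastin is the plastin of leukocytes, whose markers summed to 190.1 and 190.3 CPM in KO, against 111 and 106 CPM in WT, and their part in the Lcp1 value was not tested. For Fscn1, a 60-base stretch of its promoter (chr5:142960295-142960354, plus strand, GRCm38.p6) is shown because it holds, in capitals, the only TATA box, TATAAA, among the member promoters.
Fscn1: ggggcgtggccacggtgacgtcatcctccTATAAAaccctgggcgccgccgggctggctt

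**Figure D4:**
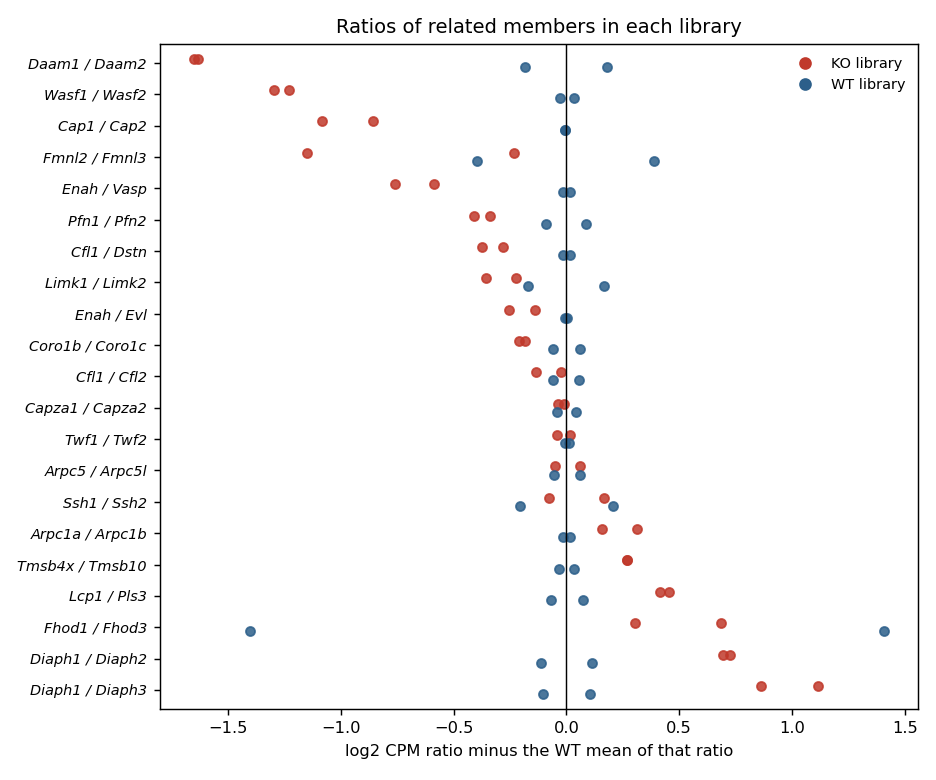
Log2 CPM ratio of 21 pairs of related members in each KO (red) and WT (blue) library, with the WT mean of each ratio set to 0. In 14 pairs the KO libraries lie wholly to one side of the WT libraries, from Daam1 to Daam2 at -1.64 to Diaph1 to Diaph3 at 0.99.

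Ratios of related members do not depend on library scaling. In 14 of 21 listed pairs the KO and WT libraries did not overlap, a share close to the 67.1% of single genes that did not. With 2 libraries against 2, an exact two-sided permutation test cannot go below p = 0.333, so no pair can pass and the ratios are a description. The larger differences in log2 ratio, KO minus WT, were -1.64 for Daam1 to Daam2, -1.27 for Wasf1 to Wasf2, -0.97 for Cap1 to Cap2, 0.99 for Diaph1 to Diaph3 and 0.71 for Diaph1 to Diaph2. By contrast Arpc5 to Arpc5l differed by 0.0025, Twf1 to Twf2 by -0.014, Capza1 to Capza2 by -0.026 and Cfl1 to Cfl2 by -0.079, with overlapping libraries. The ratios of Capzb to Capza1 (difference 1.49), of Capzb to Capza2 (1.46) and of Actr2 to Actr3 (0.85) were added after the values had been seen.

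Further regulators of the same machinery were counted by list, beside 18.3% of all tested genes called higher and 17.4% called lower. Of partners of capping protein and other barbed-end cappers 10 were tested, with 6 lower, 1 higher and 3 not passing (median -0.37). Those lower were Avil, advillin of the gelsolin family, Sh3kbp1 and Carmil1, which bind capping protein, Eps8, a capper, Add3, an adducin, and Mtpn, myotrophin, which sequesters capping protein. Avil had 6 and 7 estimated counts in KO, against 31 and 22 in WT (log2 fold change -2.37, SE 0.44), and the other 5 fell by 0.13 to 0.45. Cd2ap, another capping protein partner, rose by 0.20. Of 16 tested regulators of Arp2/3, Washc1 rose by 0.28, and Abi2, Gmfb and Nck1 fell by 0.58, 0.29 and 0.25. Abi2 belongs to the WAVE complex with Wasf1, while its other parts Brk1, Abi1, Nckap1 and Cyfip1 did not pass. None of 5 other nucleators tested passed.

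Of 12 tested genes on a list mostly of crosslinkers, 6 were higher and 2 lower, against 18.3% and 17.4% of all tested genes. Among those higher, Flna and Flnc rose by 0.39 and 0.41, the α-actinins Actn1 and Actn4 by 0.21 and 0.38 and Lasp1 by 0.32. Synpo, synaptopodin, fell, with 91 and 100 estimated counts in KO, against 142 and 158 in WT (log2 fold change -1.01, SE 0.15), and Lima1 fell by 0.29. Of 12 further turnover genes 4 rose and none fell. Coro2a, a coronin, rose by 1.51 (SE 0.46) from small counts, 26.5 and 21 in KO, against 5 and 8 in WT, and Coro7, Mical1 and Micall1 rose by 0.65, 0.56 and 0.53.

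Open chromatin at the members' start sites was found in both genotypes, with 1 library each and so no test. A peak lay within 500 bp of the annotated start in 55 of 57 members in KO and 56 in WT, and in 55 it overlapped between the lists. Wdr1 had none in either list and Capza2 none in KO, and within 1000 bp all 57 had one in both. The fold over background is the authors' value for each peak. Member peaks had a median fold of 20.4 in the KO list, where all 121748 peaks had a median of 6.38, and of 16.8 in the WT list, where all 123935 peaks had a median of 5.75. Start sites of all tested genes looked much the same. Of the 12185 with a start site in GENCODE, 92.4% had such a peak in KO and 92.4% in WT, with median folds of 21.2 in the KO list and 18.9 in the WT list where both lists had one. Every member of the 55 lay above the KO list's median, against 97.7% of all such genes, and 54 lay above the WT list's median, against 98.2%. The 1 below was Cap2, whose WT signal was split into the 2 peaks given above. The highest were Cap1 in KO, at 37.8, and Wasf1 in WT, at 35.7, although Wasf1 was among the scarce transcripts. At Wasf1 the peak was also present in KO, at 36.1.

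**Figure D5:**
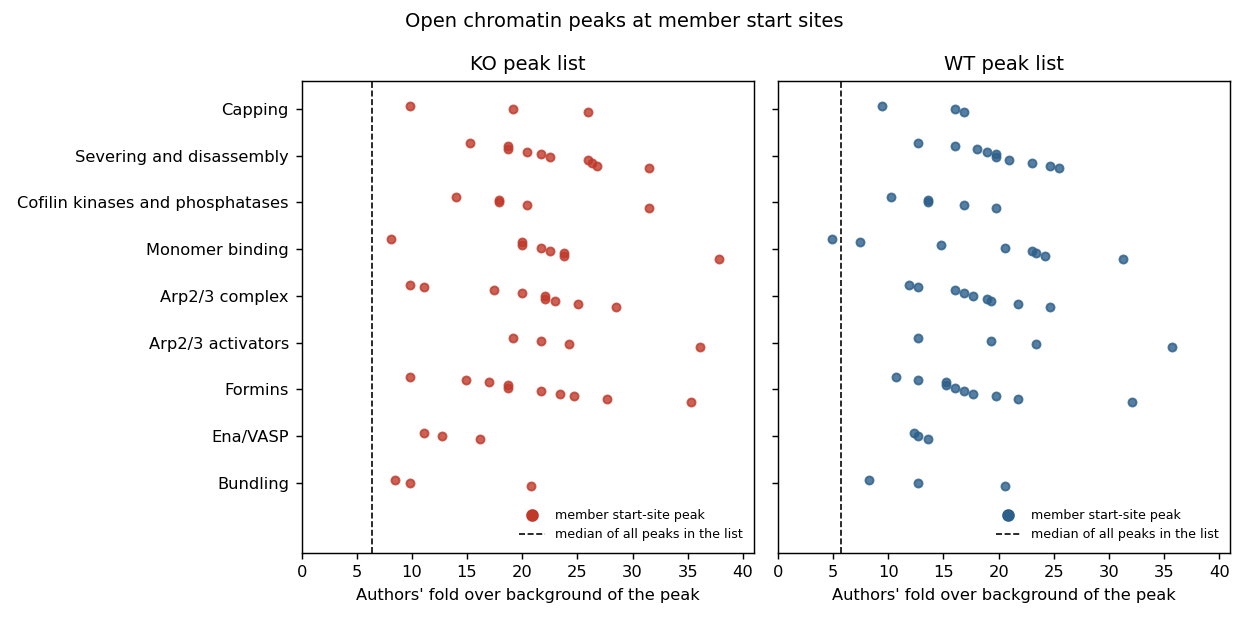
Authors' fold over background of the start-site peak of each of 55 members, by role, in the KO list (left) and the WT list (right), with a dashed line at the median of all peaks of that list, 6.38 in KO and 5.75 in WT. The start-site peaks lie above that line in both lists except for Cap2 in WT, at 4.93, where a further WT peak just downstream had a fold of 16.0.

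Within the gene bodies 490 peaks of the KO list and 493 of the WT list were found. Of these, 19.8% in KO and 19.3% in WT had no overlapping peak in the other list, against 23.7% of all KO peaks and 24.4% of all WT peaks. Mical2 held the most, 48 in KO and 52 in WT. Capzb held 34 in KO, 9 of them without a WT counterpart, and 32 in WT, 7 of them without a KO counterpart. Actr2 held 6 in KO, 3 without a counterpart, and 4 in WT, 1 without a counterpart. Wasf1 held a single peak in each, at its start.

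RefSeq listed 65 promoters for 49 of the 57 members, and 5 motifs were searched on both strands of their 300 bases. GC boxes were common, in 76.9% of member promoters and 35.7% of 32851 promoters of all genes. TATA boxes were rare, in 1.54% of member promoters and 13.6% of all. The promoters of all genes include those of genes too low to test here, and shares among tested genes alone were not counted. Whether these differences are particular to the members was thus not tested. The CArG box was in 1.54% of member promoters and 1.63% of all, the MCAT element in 18.5% and 14.7%, and the AP-1 site, TGANTCA, in 4.62% and 7.81%. None of the motifs overlapped another in the sequences shown. A match of letters is a description and not evidence that a factor binds.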

How the data were processed

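RNA-seq was analysed in 2 KO and 2 WT libraries and ATAC-seq in 1 of each, grouped by the genotype in their titles. The authors deposited estimated counts per gene. Per the submitters' processing notes, Trim Galore 0.6 and STAR 2.5.3a made the alignments to mm10. The counting program was not given in the sources used here. No source states that the library kit keeps strand. Tests had been planned for whole counts, so the estimates were rounded and then tested as planned. The deposited ATAC-seq peak lists, called with MACS2 in each library separately per the labels, hold for each peak a score, a fold over background (a ratio), a −log10 p-value and a −log10 q-value. Their reads were aligned with Bowtie2 2.3. The KO list went down to a −log10 q-value of 1.86, and the WT list to 1.7. The depth of these libraries is not given in the sources used here.

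The quasi-likelihood test of edgeR 4.0.16 (R 4.3.3) compared the genotypes with no other term and 2 residual degrees of freedom, after TMM scaling and filterByExpr at a minimum count of 10. P-values of the 12192 genes left were adjusted together by Benjamini-Hochberg, with a threshold of 0.05. Each SE is |log2 fold change| over the square root of its F statistic. CPM is relative to TMM-scaled library sizes, and TPM was computed from the estimated counts and GENCODE M21 exon lengths. Uncertain genes were found from 100-base exon windows shared with other genes. More than 5% of windows were shared in 9 members, namely Capza1, Arpc1b, Actr3, Tmsb10, Cfl1, Coro1b, Arpc4, Evl and Twf1. Replicates of a genotype differed by more than sampling noise (ratio of chi-square to its degrees of freedom 1.94 in KO and 1.75 in WT), so none was merged. The tests were checked on simulated counts.

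The members, related lists, markers and pairs were chosen with earlier results of these data known. By rule, called members with a log2 fold change of at least 0.5 in size and the 3 members of smallest p in each role group are given by library, and of the related lists called genes of at least 1. Members behind counts of 5 or fewer are named too. Some results of the related lists are not reported here. The alternatives were DESeq2 1.42.0, RLE factors, library size only, no filter on low counts, a replicate block, an assumed BCV of 0.1 or 0.2 and leaving out each library. For peaks they were a stricter threshold, a wider window and a reciprocal overlap. The shares by level, the start-site peaks of all tested genes and 4 pairs were added after seeing the data.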

Additional observations from a re-analysis of the deposited data

How the results depend on the processing

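The counts depended most on the spread assumed. DESeq2 called 2058 genes and 11 members higher, a BCV of 0.1 called 1780 genes with 7 members higher and 2 lower, and a BCV of 0.2 called 398 genes with 2 members higher and 0 lower. Leaving out 1 library at a time gave 15 to 16 members higher and 4 to 6 lower, the 4 without KO replicate 1. Of the 27 called members none changed sign under any of the 11 alternatives, and Capzb and Cap2 kept their calls under all 11. Acta2 kept its call throughout, at -3.10 to -3.05.

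The 13 members whose sign changed were all uncalled. With DESeq2 the log2 fold changes of Actr3, Arpc3, Arpc5 and Arpc5l were -0.0023, -0.0056, -0.0012 and -0.0024, and with RLE factors -0.0023, -0.0049, -0.0011 and -0.0022. With library size only, Tmsb10 stood at 0.011 and Cttn at 0.020, and without a filter on low counts Cttn stood at 0.0025. With 1 library left out the values ran from -0.25 to 0.038 for Svil, -0.25 to 0.12 for Limk1, -0.0063 to 0.019 for Pfn1, -0.079 to 0.056 for Tmsb10, -0.0066 to 0.011 for Actr3, -0.013 to 0.089 for Arpc1a, -0.066 to 0.065 for Arpc3, -0.018 to 0.024 for Arpc5, -0.057 to 0.060 for Arpc5l, -0.033 to 0.027 for Cttn, -0.18 to 0.038 for Fmnl3, -0.024 to 0.57 for Fhod1 and -0.0028 to 0.078 for Pls3. The cause was not tested.

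With the replicate block, 4408 genes were called, with 20 members higher and 7 lower, the same 27 as without it. Same-numbered libraries share only a number in the labels, and their deviations from the genotype means correlated at 0.070 over 6869 genes. With peaks of −log10 q of at least 10, member gene bodies held 222 peaks in KO and 206 in WT, of which 35 and 20 were not shared. With a reciprocal overlap of 0.5 of each peak's length, 190 in KO and 195 in WT were not shared. Counts at start sites stayed within 1.5 times. Low counts limit the precision of members such as Daam2 and Wasf1.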
